A study of Mus musculus with 2 samples.

Results

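The genes described here write, copy and remove 5-methylcytosine in DNA. They are 10 genes chosen by symbol for their known function: Dnmt1, Uhrf1, Dnmt3a, Dnmt3b, Dnmt3l, Tet1, Tet2, Tet3, Tdg and Mbd4. All 10 were found in both gene tables, among 43346 annotated genes. The study measured polyadenylated RNA of MEL cells, an immortalized mouse erythroleukemia line, by single-end sequencing. It has 1 group with 2 samples, labelled biological replicates 1 and 2, and the labels name no treatment or genetic change. MEL cells stem from leukemia of virus-infected mice and resemble erythroid precursors arrested before terminal maturation. One line of leukemic cells stands for itself and not for normal erythroblasts, and the labels do not give the age or sex of the source.

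In mammals, DNA methylation sits mainly on the cytosine of CpG dinucleotides. Dnmt1 copies it onto the new strand after replication, guided by Uhrf1, while Dnmt3a and Dnmt3b set it on unmethylated sites. The TET enzymes oxidize the mark, and the glycosylase Tdg then cuts out the oxidized base, which base excision repair replaces. In the erythroid lineage, global DNA methylation is known to fall during terminal maturation, and TET2 and DNMT3A are genes often mutated in human blood cancers.

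The replicates held 67735380 and 79923143 expected counts, which are estimated reads per gene. All 13 erythroid markers reached at least 1 TPM in both replicates, with a summed level of 5043 and 7007 TPM. TPM is the deposited level of a transcript or gene, scaled for length and library depth. None of the 5 myeloid, 6 lymphoid, 6 pluripotent and germ cell or 3 fibroblast markers reached 1 TPM. The summed level of each of these lists was between 0.04 and 0.94 TPM, and Ly6g, Cd14, Cd3e, Zfp42 and Dppa4 were at 0 in both. Of 3 megakaryocyte markers 2 did, Itga2b at 24.1 and 42.9 TPM and Gp1ba at 3.39 and 3.77 TPM. The erythroid markers Gata1, Epor, Hba-a1 and Hbb-bs were more than 2-fold higher in replicate 2, on scaled counts. Whether this difference in erythroid markers bears on the differences between replicates given here was not tested.

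Of the 10 genes, 8 were detected, meaning at least 1 TPM in both replicates. The same held for 26.9% of all genes and 46.8% of protein-coding genes. The detected genes spanned a wide range, from Dnmt1 at 461 ± 58.9 TPM (SD, n = 2) to Tet2 at 4.62 ± 1.08 TPM. Tet1 and Dnmt3l were at or near 0. From highest to lowest mean the order was Dnmt1, Uhrf1, Tdg, Dnmt3a, Tet3, Dnmt3b, Mbd4, Tet2, Tet1 and Dnmt3l. A pair of genes was said to stand apart when its log2 TPM ratio had the same sign in both replicates and its mean exceeded 1.40. That limit, a 2.64-fold ratio, is the 95th percentile of the difference between replicates over genes with at least 1 TPM. By this rule 36 of the 45 pairs of members stood apart, against 68.9% of all pairs of protein-coding genes. Among neighbours in the order, Dnmt1 stood apart from Uhrf1, Tdg from Dnmt3a and Tet2 from Tet1. The remaining neighbours did not differ beyond this spread, and the replicate values of Dnmt3a and Tet3 overlapped.

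**Figure D1:**
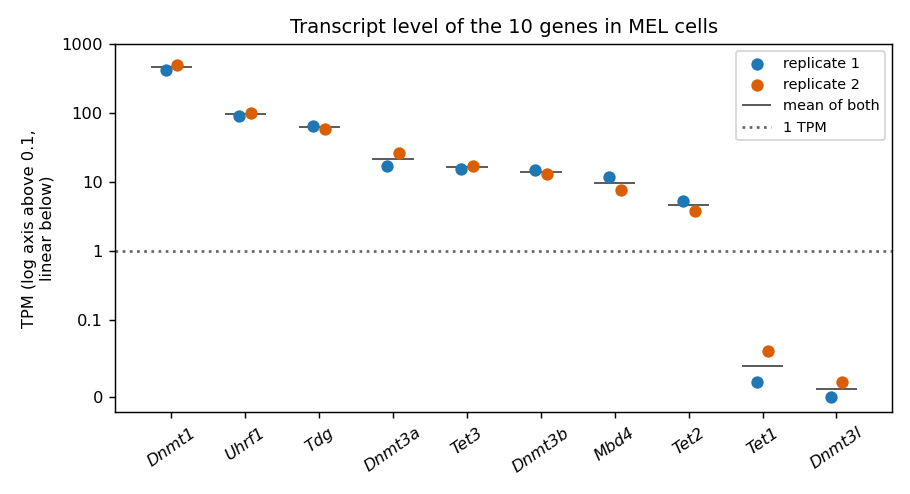
TPM of each gene (vertical axis, log above 0.1 and linear below) in replicate 1 and replicate 2 (points) with their mean (line). Dnmt1 lies highest at 419 and 502 TPM, and Tet1 and Dnmt3l lie below 0.1 TPM in both replicates.

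The genes that maintain methylation had the highest mean levels of the group. Dnmt1 (chr9:20907209-20959888, minus strand), the maintenance methyltransferase, was at 419 TPM in replicate 1 and 502 TPM in replicate 2. These levels rest on 101510 and 155689 expected counts. It ranked 242 among 21474 protein-coding genes by mean TPM. Uhrf1 (chr17:56303321-56323486, plus strand) binds hemimethylated CpG and recruits Dnmt1. It was at 91.7 TPM in replicate 1 and 100.6 TPM in replicate 2, from 13505 and 19320 counts. The replicates of each gene lay close together, with replicate 2 the higher for both. Dnmt1 exceeded Uhrf1 4.77-fold (mean log2 ratio 2.26 ± 0.09, SD, n = 2). Uhrf1 in turn exceeded its paralog Uhrf2, at 21.3 and 14.6 TPM, 5.42-fold. Dnmt1 held 92.9% and 92.8% of the summed TPM of Dnmt1, Dnmt3a and Dnmt3b.

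The catalytic center of these enzymes is a proline and cysteine pair, of which the cysteine attacks the base. The sequences below show the codons of that pair in capitals within 42 coding bases of each transcript, 5′ to 3′, from GENCODE M21 on mm10. They are shown because the same pair serves in the copying enzyme and in both de novo enzymes.
Dnmt1-201, chr9:20911795-20911836, minus strand: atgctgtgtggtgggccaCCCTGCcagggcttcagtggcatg
Dnmt3a-201, chr12:3902405-3902446, plus strand: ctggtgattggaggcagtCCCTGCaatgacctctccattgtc
Dnmt3b-201, chr2:153677195-153677236, plus strand: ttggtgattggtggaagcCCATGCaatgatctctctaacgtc

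Dnmt1 RNA was divided between 2 kinds of transcript that differ mainly in their first exon. Dnmt1-201 encodes the full protein of 1620 residues and was at 161 TPM in replicate 1 and 231 TPM in replicate 2. Dnmt1-202, which starts farther upstream at position 20959888 and whose annotated coding sequence gives 1501 residues, was at 254.8 and 267.5 TPM. Together with Dnmt1-203, which held 0.71% and 0.69% of the gene's TPM, transcripts of 1501 residues made up 61.5% and 53.9%. The shares of 1620 residues were 38.5% and 46.1%. Only 275 bases of Dnmt1-201 and 156 bases of Dnmt1-202 are not shared, so the division rests on a small stretch of each. A shorter Dnmt1 protein from an upstream first exon is known from oocytes. The file values give the transcript model and do not show which protein was made.

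Uhrf1 TPM was assigned to models with 2 groups of start sites, and the start sites themselves were not measured. The transcripts Uhrf1-201 and Uhrf1-203 begin at the upstream start and held 63.2% and 48.8% of the gene's TPM. The transcripts Uhrf1-202 and Uhrf1-204 begin 3′ of it at a CpG-rich start and held 27.8% and 46.0%. Uhrf1-201 was at 38.9 TPM in replicate 1 and 6.5 TPM in replicate 2, while Uhrf1-203 was at 19.03 and 42.6 TPM and Uhrf1-204 at 24.6 and 44.1 TPM. The division of TPM between the models thus differed between the replicates. Transcripts that encode 782 residues held 69.3% and 50.3% of the gene's TPM, and transcripts that encode 774 residues held 21.7% and 44.5%. Uhrf1-201 has 103 bases that are not in Uhrf1-203, and 0 bases of Uhrf1-203 are missing from Uhrf1-201. The division between these models thus rests on a short stretch.

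E2F factors, which drive genes of the S phase of the cell cycle, bind sites related to TTTNNCGC. This motif was searched on both strands of windows from 250 bases before to 50 bases after each start in RefSeq (GRCm38.p6). It occurred in 5.17% of 32851 windows. Among the windows of the 10 genes it occurred in both Uhrf1 windows, with 1 match each, and in 1 of 3 Dnmt1 windows, with 3 matches, some of which overlap. The windows of the other members held no match. Both sequences below give matches before the start in capitals, 5′ to 3′ on the coding strand. They are shown because they belong to the pair of genes that maintain methylation. The match in the upstream Uhrf1 window is not shown. The Uhrf1 window before the CpG-rich start lies within the first intron of Uhrf1-201. The Dnmt1 stretch is a site of 30 bases in the first exon of Dnmt1-201 and holds the 2 matches before the start of its window. That start, at position 20952623, is the start of Dnmt1-203, which held only 0.71% and 0.69% of Dnmt1 TPM.
Uhrf1, chr17:56304063-56304312, plus strand: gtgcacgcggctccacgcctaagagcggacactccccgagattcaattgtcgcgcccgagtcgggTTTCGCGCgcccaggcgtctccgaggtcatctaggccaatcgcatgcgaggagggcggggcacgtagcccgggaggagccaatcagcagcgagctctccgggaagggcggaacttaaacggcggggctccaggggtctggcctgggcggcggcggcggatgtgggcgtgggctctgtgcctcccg
Dnmt1, chr9:20952823-20952852, minus strand: gtttccgcgcGCGCGAAAAAgccggggtct

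Both windows that hold these stretches had 33 CpG, more than 91.4% of all windows, whose median was 7. Members with lower TPM than Uhrf1 had windows with more, 46 and 47 CpG at the upstream starts of Dnmt3a and 57 in Tet2, and the window at the upstream start of Uhrf1 had 12. A match is only a description of letters and no binding was measured. The window at the upstream start of Dnmt1-202 had 2 CpG and no match, and the transcript with that start held 60.8% and 53.3% of Dnmt1 TPM. The window at the start of Dnmt1-201 had 12 CpG and no match. Windows of the genes at or near 0 also varied, with 17 CpG for Tet1 and 3, 4 and 6 CpG for Dnmt3l.

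Genes of de novo methylation were expressed far below Dnmt1. Dnmt3a (chr12:3806007-3914443, plus strand) was at 17.2 TPM in replicate 1 and 26.0 TPM in replicate 2. Dnmt3b (chr2:153649450-153687730, plus strand) was at 14.95 TPM in replicate 1 and 13.2 TPM in replicate 2. Dnmt1 exceeded Dnmt3a 21.6-fold and Dnmt3b 32.4-fold. The ratio of Dnmt3b to Dnmt3a, with log2 values of -0.20 and -0.97, stayed within the limit for pairs. Dnmt3l (chr10:78041947-78063622, plus strand) is the cofactor without activity of its own that stimulates both enzymes in germ cells and early embryos. It had 0 counts in replicate 1, which allows up to 3 counts or 0.0443 CPM, a count scaled to the library total, and 1 count in replicate 2. Dnmt3c, the rodent paralog of Dnmt3b used in male germ cells, was at 0.51 and 0.34 TPM.

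Most Dnmt3b TPM was assigned to transcripts of the kind known to encode a protein without methyltransferase activity. Alternative splicing of mouse Dnmt3b removes a pair of neighbouring exons near the end of the catalytic domain, as in the isoforms called Dnmt3b3 and Dnmt3b6, which lack activity of their own and are known to act as accessory proteins. These exons are chr2:153683608-153683677 (70 bases) and chr2:153684359-153684477 (119 bases). Together they hold 189 bases, or 63 codons, so that the reading frame is kept. The coding stretch is shown 5′ to 3′ (plus strand, mm10, GENCODE M21), with the 2 exons in capitals in Dnmt3b-201 and as joined without them in Dnmt3b-206.
Dnmt3b-201: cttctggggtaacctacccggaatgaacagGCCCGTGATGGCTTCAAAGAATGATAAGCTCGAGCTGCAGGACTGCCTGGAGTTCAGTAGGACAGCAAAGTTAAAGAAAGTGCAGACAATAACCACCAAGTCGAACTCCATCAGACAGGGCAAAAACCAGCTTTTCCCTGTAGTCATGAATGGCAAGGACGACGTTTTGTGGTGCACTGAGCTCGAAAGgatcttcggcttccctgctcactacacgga
Dnmt3b-206: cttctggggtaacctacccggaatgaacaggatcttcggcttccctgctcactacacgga

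Transcripts without the 2 exons were at 11.8 TPM in replicate 1 and 10.9 TPM in replicate 2. Transcripts with them were at 2.75 TPM and 2.0 TPM. The form without the exons thus held 79.2% and 82.3% of Dnmt3b TPM (mean 80.7% ± 2.2, SD, n = 2), and the form with them held 18.4% and 15.1%. Nearly all of the first came from Dnmt3b-206, at 11.8 and 10.9 TPM, which encodes 776 residues. It also lacks an upstream coding exon of 60 bases at chr2:153670849-153670908. Dnmt3b-204, Dnmt3b-205 and Dnmt3b-208, the other models without the pair, had at most 0.01 TPM. Dnmt3b-209, a model with the pair, has 192 bases that are not in Dnmt3b-206. In turn, 0 bases of Dnmt3b-206 are missing from Dnmt3b-209, so the division between these models rests on a short stretch.

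The catalytic proline and cysteine codons lie upstream of the skipped exons, so all 10 full coding models of Dnmt3b keep them. By that motif alone, 97.6% and 97.4% of Dnmt3b TPM would count as catalytic, and the remainder lay on models with a retained intron. Presence of the motif therefore did not separate the forms, and the exon pair did.

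**Figure D2:**
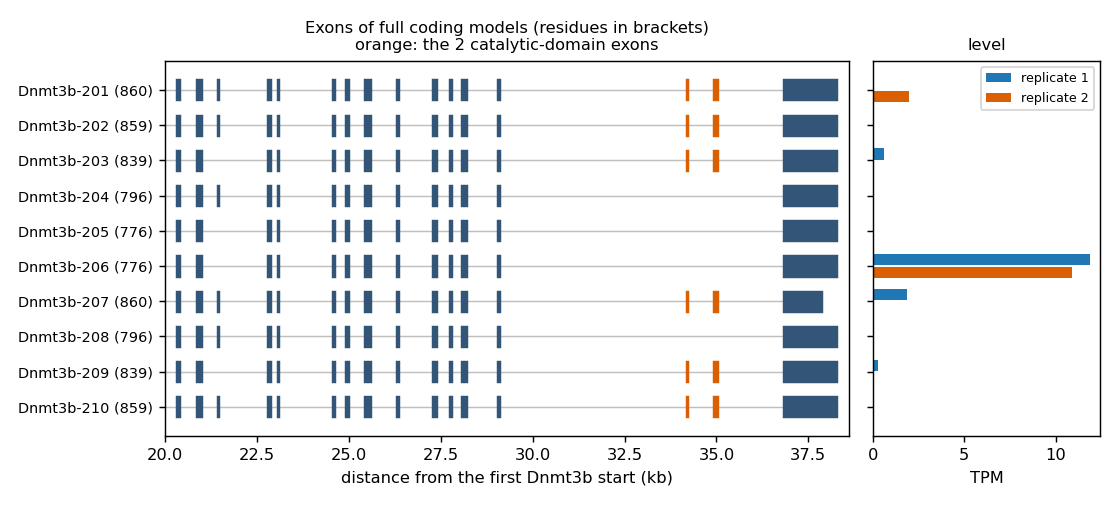
Left, exons of the 10 full coding Dnmt3b models by distance from the first start in kb, with the 2 catalytic-domain exons in orange and the encoded residues in brackets. Right, TPM of each model in both replicates: Dnmt3b-206, without the pair, holds 11.8 and 10.9 TPM.

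Which model carried the remaining Dnmt3b RNA was not the same in both replicates. Dnmt3b-207 was at 1.85 TPM in replicate 1 and 0.01 TPM in replicate 2. Dnmt3b-201 was at 0 and 1.99 TPM. Both encode the full protein of 860 residues, and their summed level was 1.85 and 2.0 TPM. The models Dnmt3b-203 and Dnmt3b-209, of 839 residues, held 6.02% together in replicate 1 and 0 in replicate 2. Dnmt3b-202 and Dnmt3b-210, of 859 residues, were listed at 0 in both.

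Among full coding Dnmt3a transcripts, those of the long protein were the more abundant in both replicates. The long form, Dnmt3a1, has 908 residues and the short form, Dnmt3a2, has 689 residues and starts inside the gene. Transcripts of 908 residues (Dnmt3a-201 and Dnmt3a-218) were at 12.5 TPM in replicate 1 and 10.7 TPM in replicate 2, or 72.4% and 41.1% of the gene's TPM. Transcripts of 689 residues (Dnmt3a-203 and Dnmt3a-205) were at 3.74 and 4.53 TPM. The full coding transcripts thus summed to 16.2 and 15.2 TPM, a smaller difference than the 17.2 and 26.0 TPM of the gene. The rest was on models with no complete coding sequence, which held 5.92% of the gene's TPM in replicate 1 and 41.5% in replicate 2. In replicate 2 these included Dnmt3a-210 at 5.03 TPM and Dnmt3a-216 at 2.92 TPM, both listed at 0 in replicate 1. They are 501 and 502 bases long and rest on 135 and 78.7 expected counts.

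Set against each other, full coding Dnmt3a transcripts exceeded Dnmt3b transcripts with both exons 5.90-fold in replicate 1 and 7.61-fold in replicate 2. Their mean log2 ratio was 2.74 ± 0.26 (SD, n = 2). At the level of whole genes, Dnmt3a exceeded Dnmt3b 1.5-fold, within the limit. This comparison was added after the transcript values were seen. The deposited shares come from a model that divides reads between overlapping transcripts, and reads across each junction were not analysed here.

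**Figure D3:**
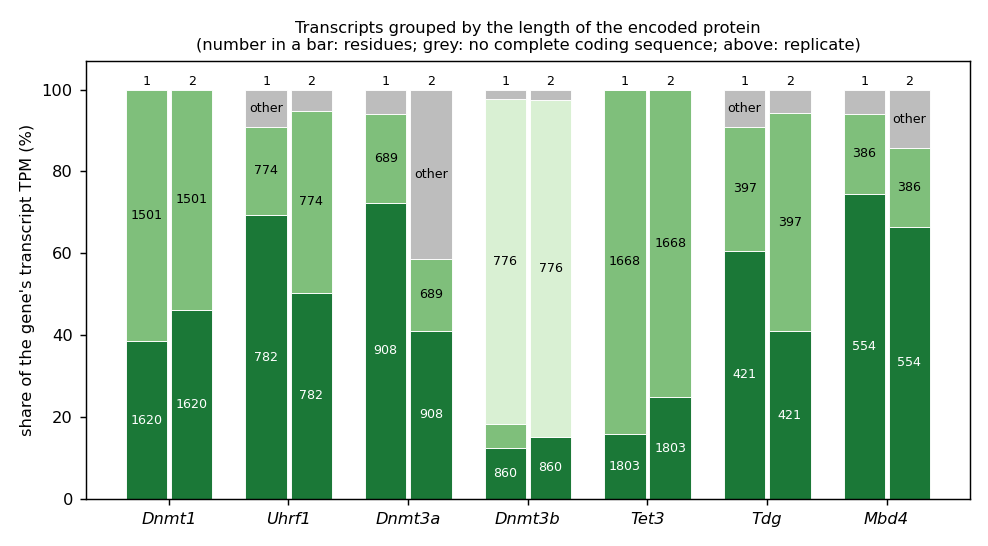
Share of each gene's TPM (vertical axis, percent) by the length of the encoded protein, for replicate 1 (left bar) and replicate 2 (right bar), with models lacking a complete coding sequence in grey. The 776-residue form of Dnmt3b holds 79.2% and 82.3%, and the grey share of Dnmt3a is 5.92% and 41.5%.

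Oxidation of 5-methylcytosine was represented by Tet3 and Tet2, with Tet1 nearly absent. Tet3 (chr6:83362373-83459084, minus strand) was at 15.6 TPM in replicate 1 and 17.3 TPM in replicate 2. Tet2 (chr3:133463679-133545139, minus strand) was at 5.38 and 3.85 TPM. Tet1 (chr10:62804570-62908996, minus strand), the TET enzyme known for its high level in pluripotent cells, was at 0.02 and 0.06 TPM, from 14 and 11 counts. Tet3 held 74.3% and 81.5% of the summed TET TPM. It exceeded Tet2 3.55-fold (mean log2 ratio 1.83 ± 0.44, SD, n = 2), and both stood apart from Tet1. The summed TPM of the TET genes was 20.97 and 21.18. Tet3 and Dnmt3a did not stand apart, with log2 ratios of Dnmt3a over Tet3 of 0.15 and 0.59.

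Most Tet3 TPM was assigned to the model without a CXXC domain. This zinc-finger domain binds CpG and, among the TET family, is found in the longer proteins of Tet3 and Tet1. Tet3-202, of 1668 residues and without the domain, was at 13.1 TPM in replicate 1 and 12.95 TPM in replicate 2. Tet3-203, of 1803 residues with the domain, was at 2.48 and 4.29 TPM. The model without CXXC held 83.9% and 74.99% of Tet3 TPM. Each model has bases of its own, 5795 in Tet3-202 and 835 in Tet3-203. Tet3-202 also ends farther 3′, at position 83362373 against 83368042 in Tet3-203. Its own bases are thus mostly 3′ sequence apart from the CXXC stretch, and its first exon holds only 126 bases. The share is therefore not a direct measure of how often the CXXC stretch was used. How far the share rests on that 3′ sequence was not tested. The deposited files hold 1 Tet2 model, Tet2-201, of 1912 residues and likewise without a CXXC domain, so Tet2 isoforms could not be compared. The CXXC protein Cxxc4, which is encoded beside Tet2 and is known to bind its protein, was at 0.04 and 0.01 TPM. Cxxc5, its paralog, was at 2.34 and 2.47 TPM.

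The glycosylases were led by Tdg. Tdg (chr10:82629828-82650799, plus strand) removes 5-formylcytosine and 5-carboxylcytosine, the last products of the TET enzymes, and thymine paired with guanine. It was at 64.4 TPM in replicate 1 and 59.8 TPM in replicate 2. Mbd4 (chr6:115840697-115853371, minus strand), which binds methylated CpG and removes thymine left by deamination, was at 12.02 and 7.57 TPM. The replicates of Tdg lay close together and those of Mbd4 did not. Tdg exceeded Mbd4 6.44-fold and Tet3 3.77-fold. Tdg shares reads with its processed pseudogene Tdg-ps on chromosome 15, which was at 18.5 and 8.51 TPM. The pseudogene took 21.6% and 12.1% of the counts of the pair, and the posterior SD of the Tdg count, the highest of the 10 genes, was 84.1 and 83 counts.

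Tdg TPM was mostly divided between models that encode 421 and 397 residues. Tdg-208, with 421 residues, was at 39.0 TPM in replicate 1 and 24.5 TPM in replicate 2. Tdg-201, with 397 residues, was at 19.5 and 31.9 TPM. The model with the higher TPM thus differed between the replicates. Only 31 bases of Tdg-201 and 574 bases of Tdg-208 are not shared. Tdg-208 also ends farther 3′, at position 82650799 against 82650324, so part of its own bases is 3′ sequence. Of Mbd4, the transcript that encodes 554 residues (Mbd4-201) was at 8.97 and 5.03 TPM. Mbd4-202, which encodes 386 residues, was at 2.34 and 1.45 TPM. Mbd4-204, annotated as a target of nonsense-mediated decay, held 5.99% and 14.4% of Mbd4 TPM.

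No member tested differed 2-fold between the replicates. The libraries were compared by counts scaled with TMM, for genes whose counts summed to 20 or more. This compares 2 libraries and not conditions, and the 95% intervals cover counting error only. Among 15251 genes tested, 20.4% were at least 2-fold apart, against 0 of the 9 members tested. Dnmt3l was not tested, since it had 1 count in all. At 1.5-fold, 2 of 9 members passed, Mbd4 and Tet1, beside 50.3% of all tested genes. Mbd4 was 1.62-fold higher in replicate 1 (interval 1.51 to 1.74). In bulk RNA, fewer cells with a transcript and less RNA per cell cannot be told apart. Tet1 was 1.62-fold higher in replicate 1, from 14 and 11 counts, and its interval of 0.689 to 3.98 included no difference. Tet2 was 1.40-fold higher in replicate 1 (interval 1.32 to 1.49), and Dnmt1 was 1.20-fold higher in replicate 2 (interval 1.19 to 1.21). The smallest two-sided p that an exact test of 2 samples could give was 0.5, so none was computed.

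Among the 8 detected genes, Dnmt3a was the one whose counts and TPM differed most. Its counts were 5945 and 7119, or 87.8 and 89.1 CPM, and after scaling replicate 1 was 1.07-fold higher. By TPM, replicate 2 was 1.51-fold higher. The effective length by which the authors divided was 7484 bases in replicate 1 and 4653 bases in replicate 2, the latter with the short models described above. The deposited credibility intervals of its TPM, 16.9 to 19.6 and 23.7 to 28.9, did not overlap. By TPM with a pseudocount of 0.1, 2 of 9 members passed 1.5-fold, Dnmt3a and Mbd4, beside 47.2% of all tested genes. Tet1, at 0.02 and 0.06 TPM, passed only without the pseudocount, and its counts and TPM differed in opposite directions.

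**Figure D4:**
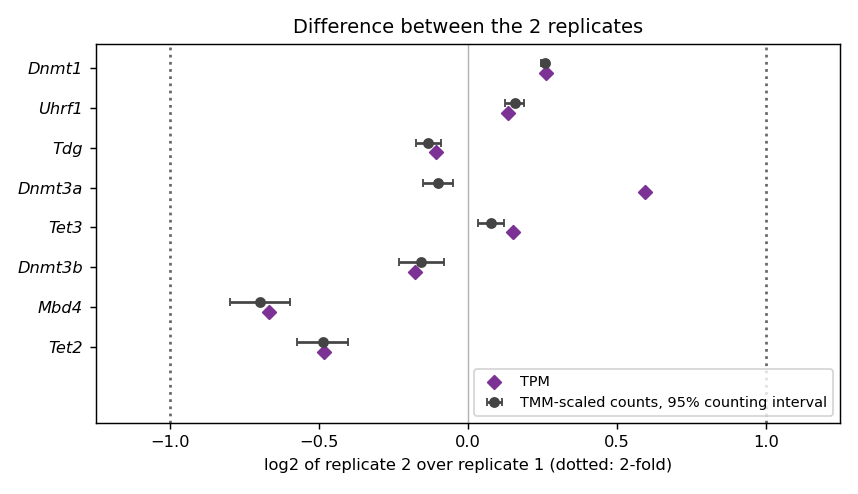
Log2 of replicate 2 over replicate 1 for the 8 detected genes, by TMM-scaled counts (circles, with 95% counting intervals) and by TPM (diamonds). Every gene lies within the dotted 2-fold lines, and Dnmt3a is the gene with values on either side of 0.

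Proteins that work with the methyltransferases were widely expressed. Of 20 partners, 17 were detected and 15 reached at least 10 TPM. Among all protein-coding genes 46.8% were detected. Their median was 73.85 TPM, against 0.49 TPM for all protein-coding genes and 23.0 TPM for those detected. The highest were Trim28, a corepressor that guards methylation at imprinted regions, at 422 and 730 TPM, and Pcna, the sliding clamp of replication, at 518 and 410 TPM. Hdac2 was at 377 and 112 TPM, Hells, a remodeler needed for methylation of heterochromatin, at 167 and 120 TPM, and its partner Cdca7 at 129.9 and 92.2 TPM. Usp7, which deubiquitinates Uhrf1 and Dnmt1, was at 143 and 70.9 TPM. By scaled counts, 3 of 17 partners tested were at least 2-fold lower in replicate 2, namely Hdac2, Hells and Usp7, with log2 ratios of -1.49, -1.63 and -1.05, and none was 2-fold higher. Among all tested genes 20.4% were 2-fold apart in either direction, a share near that of the partners. For Hells the TPM values differ by less than its counts do. Dppa3, which keeps Uhrf1 out of the nucleus in oocytes, the oocyte gene Nlrp14 and Zfp57, which binds methylated imprinted regions in embryonic cells, were at 0. Trdmt1, the former Dnmt2 that methylates tRNA, was at 9.76 and 6.53 TPM.

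Most genes listed as methyl-CpG readers were also expressed. Of these 11 genes, 10 were detected, with a median of 13.8 TPM. Of all protein-coding genes 46.8% were detected. The list may hold genes whose proteins do not bind methylated DNA, and binding was not measured. Mbd3, a NuRD subunit that in mammals binds methylated DNA poorly, was at 108 and 219 TPM. Mbd2, which does bind it, was at 116.5 and 117.1 TPM. Mbd6 was at 22.6 and 34.3 TPM and Egr1 at 32.6 and 20.5 TPM. The lowest were Zbtb4 at 1.26 and 2.04 TPM and Wt1 at 0. Mbd3 and Mbd6 were at least 2-fold higher by counts in replicate 2 and Zbtb33 at least 2-fold lower, among 10 listed genes tested. The share of all tested genes 2-fold apart in either direction was 20.4%. Of 8 CXXC proteins, 7 were detected, with a median of 31.8 TPM. Cxxc1 was at 64.05 and 98.6 TPM, Kdm2a at 41.4 and 42.03 TPM, Kdm2b at 32.65 and 38.8 TPM and Fbxl19 at 21.6 and 43.1 TPM. These bind unmethylated CpG islands.

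Genes that supply the methyl donor and the co-substrate of the TET enzymes were mostly expressed. S-adenosylmethionine is made by Mat2a, at 338 and 219.8 TPM, and its regulatory subunit Mat2b, at 78.6 and 78.5 TPM. Ahcy, which clears the product that inhibits methyltransferases, was at 197 and 287 TPM, and Ahcyl1 at 96.6 and 78.3 TPM. The liver genes Mat1a and Bhmt were at 0 and at most 0.01 TPM. Of 11 genes of methyl donor supply, 8 were detected, with a median of 14.3 TPM. By scaled counts Gnmt alone, of 9 tested, was at least 2-fold apart, at 0.46 and 1.21 TPM. TET enzymes use 2-oxoglutarate and are inhibited by succinate and fumarate. All 11 genes of that list were detected, with a median of 81.8 TPM and none past 2-fold by scaled counts. For comparison, 46.8% of protein-coding genes were detected, and 20.4% of all tested genes were at least 2-fold apart. Sdhb was at 159 and 259 TPM, Fh1 at 277 and 138 TPM, Sdha at 181 and 159 TPM, and Idh2 at 151 and 143 TPM. The lowest were D2hgdh, at 9.62 and 14.6 TPM, and the ascorbate transporter gene Slc23a2, at 7.1 and 7.84 TPM.

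Repair that follows Tdg and Mbd4 was likewise present. All 10 genes of base excision after the glycosylase were detected, with a median of 55.8 TPM and none past 2-fold by scaled counts. For comparison, 46.8% of protein-coding genes were detected, and 20.4% of all tested genes were at least 2-fold apart. Parp1 was at 114 and 142 TPM, the endonuclease gene Apex1 at 98.3 and 119 TPM, Fen1 at 86.8 and 109 TPM and Lig3 at 61.7 and 65.7 TPM. Xrcc1, the scaffold of the repair complex, was at 36.2 and 66.45 TPM. The lowest were Apex2, at 8.54 and 17.8 TPM, and Aptx, at 10.9 and 14.2 TPM. Of 13 other glycosylases and deaminases, 10 were detected and the median was 4.465 TPM. Tdg had a higher TPM than each of them in both replicates, but these differences were not set against the 2.64-fold limit for pairs. The highest were Ung at 23.6 and 46.3 TPM and Apobec3 at 36.1 and 31.75 TPM. Mpg at 21.1 and 31.55 TPM and Nthl1 at 12.3 and 21.9 TPM followed. Neil3 was the 1 gene of 11 tested past 2-fold by scaled counts, lower in replicate 2. Neil2 was at 0.

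**Figure D5:**
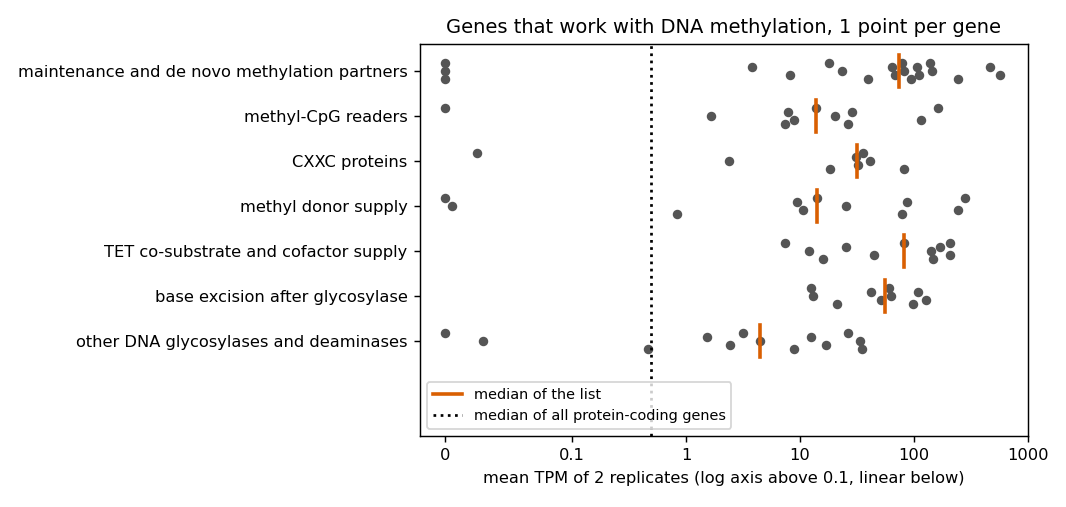
Mean TPM of 2 replicates (horizontal axis, log above 0.1 and linear below) for each gene of 7 lists, with the list's median (orange) and the median of all protein-coding genes at 0.49 TPM (dotted). List medians lie between 4.465 and 81.8 TPM.

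Genes that overlap the members on the other strand were low. The antisense genes Dnmt3aos and Dnmt3bos were at no more than 0.04 TPM, and Aire, opposite Dnmt3l, was at 0.04 and 0.13 TPM. Glt8d2, opposite the 3′ end of Tdg, was at 0.64 and 0.41 TPM, and B230319C09Rik, opposite Tet3, was at 0.51 and 0.43 TPM. Whether counting used strand is not given in the sources used here. If it did not, reads of such pairs cannot be told apart. The processed pseudogene Dnmt3a-ps1 was at 0 and Dnmt3l-ps1 at 0 and 0.04 TPM.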

How the data were processed

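Polyadenylated RNA of 2 MEL libraries was analysed from deposited tables of genes and transcripts. Per the file headers and a text deposited beside them, reads were aligned to mm10 and its transcriptome and quantified with GENCODE M4. The aligner, the quantifier and strandedness were not given in the sources used here. The deposited expected counts are estimated reads, with multi-mapping reads divided by a model. The deposited TPM and FPKM were scaled by the authors for effective length and depth. The deposited score columns (credibility bounds of TPM, posterior SD of the count) cover assignment of reads within 1 library.

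Names, positions and coding sequences came from GENCODE M21, matched without version. All 74 transcripts of the members matched, 30 with the same version and 70 with the same length, while 19 M21 transcripts of the members are not among them. Rows of 26248 short features and 97 spike-ins were left out. Promoter windows came from RefSeq (GRCm38.p6).

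Expected counts were rounded. Library sizes were scaled by TMM (edgeR 4.0.16), with DESeq2 1.42.0 size factors as an alternative. A prior count of 0.5 was used for ratios and a pseudocount of 0.1 for log2 TPM. The script was tested on simulated data. The members and lists were chosen with earlier results of these data known. Of each list the 4 highest and 2 lowest genes by mean TPM are named, beside Uhrf2, Trdmt1, Pcna, Hells, Cdca7, Usp7, Mat2a, Apex1 and Xrcc1, and of each member every transcript with at least 10% of its TPM. Other coding transcripts of Dnmt3a, Dnmt3b and Dnmt1 are given singly or in groups. Zbtb33, Gnmt, Neil3, Epor, Hba-a1, Hbb-bs, Dnmt3c, Tdg-ps and the genes that overlap members, fall outside this rule and were named after their values were seen. The labels do not say that the replicates came from separate cultures, so their spread may be partly technical. Values of some single listed genes are left out of the text.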

Additional observations from a re-analysis of the deposited data

How the results depend on the processing

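The count of 8 detected members was 7 with a minimum of 5 TPM and 8 under the 6 other settings tried, each replicate alone included. The count of 36 pairs standing apart was 36 under pseudocounts of 1 and 0.01, FPKM, posterior mean TPM, a limit from genes with at least 10 TPM, and each replicate alone. The count of members past 2-fold was 0 with DESeq2 size factors, library totals, TPM ratios and a minimum of 100 counts. It was 1 with no minimum on counts, which admits Dnmt3l with its 1 count, and 2 at a fold of 1.5. The share of Dnmt3b TPM on models with the catalytic motif, 97.5%, was 99.6% by expected counts, 96.9% by posterior mean TPM and 100% among protein-coding models, and ranged from 97.4% to 97.6% with a replicate left out. The share without the 2 catalytic-domain exons, an analysis added after the data were seen, was 80.7%. It was 82.1% by expected counts, 78.1% by posterior mean TPM and 82.8% among protein-coding models, and ranged from 79.2% to 82.3% with a replicate left out. The cause of the shifts with posterior means was not tested. Posterior mean TPM was within 1 SD of the deposited TPM for 8 of 10 members, and raised Tet1 to 0.155 and Dnmt3l to 0.255. No paired analysis was possible because the labels give 1 group. With 2 samples, differences smaller than the 2.64-fold spread between replicates could not be resolved.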

Other observations

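Germline genes known to be silenced by promoter methylation were mostly silent. Of 18 such genes 1 was detected, and 7 had no count in either replicate. Of all genes 26.9% were detected, and of protein-coding genes 46.8%. The exception was Brdt, a bromodomain gene of the testis, at 24.1 TPM in replicate 1 and 12.7 TPM in replicate 2. Sycp1, of the synaptonemal complex, was at 1.41 and 0.98 TPM, just below the rule for detection, and Ddx4 at 0.6 and 0.23 TPM, followed by Tex19.1 at 0.11 and 0.08 TPM. The germline gene Dazl was at 0.06 TPM in both replicates. By scaled counts Brdt and Ddx4 were at least 2-fold lower in replicate 2, among 4 genes of the list with enough counts. Of all tested genes 20.4% were at least 2-fold apart in either direction. Methylation of their promoters was not measured here.

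Of 26 imprinted genes measured, 9 were detected, 5 of them at 10 TPM or more, and 6 had no count. This share lay between the 26.9% of all genes and the 46.8% of protein-coding genes that were detected. Gnas was highest at 248 and 281 TPM, followed by Phlda2 at 104.8 and 188.9 TPM, H13 at 87.85 and 105.3 TPM and Impact at 30.1 and 18.1 TPM. H19, Igf2, Dlk1, Meg3 and Peg3, genes of well studied imprinted domains and named after their values were seen, were at 0.06 TPM or less. These values do not show which parental copy was transcribed.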
